A study of Mus musculus with 36 samples.

Results

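Populations E and Neg are 2 of the 6 cell populations that were sorted from the mouse brain and sequenced as RNA in this series. They were compared here in 12 of its 36 libraries, chosen by the population named in the sample title. Each population has 6 libraries, 2 each from olfactory bulb, cortex and brainstem. The labels state that all animals were C57/Bl6 mice and the cells were astrocytes in every group, Neg included. The labels name no transgene, treatment, age or sex, and do not say whether a library came from 1 animal or from pooled animals. Neither the meaning of Neg nor the surface antigens that define E are given. The study is known for sorting astrocytes by the surface proteins encoded by Itgav, Cd63 and Tfrc. Libraries were numbered within each group in accession order, so no number pairs libraries across groups. Whether the libraries of a group were separate animals is not stated, so the p-values describe a spread between libraries that may be technical.

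Astrocytes are the glial cells that take up glutamate and GABA from the synapse, buffer potassium, supply neurons with glutamine and lipid, and enclose blood vessels. They are recognised by transporters such as Slc1a3, the glutamate transporter GLAST, by the water channel Aqp4, and by membrane receptors such as Gpr37l1, an orphan receptor related to the endothelin receptors. The markers given for E pair Slc1a3 and Gpr37l1 with Ddx19a, a DEAD-box RNA helicase that acts at the nuclear pore in the export of mRNA and is not an astrocyte marker. Microglia, the resident macrophages of the brain, are recognised by complement genes and by lysosomal and Fc receptor genes.

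Values are FPKM, a fragment number scaled by transcript length and by the mapped fragments of the library, which are not counts. Relative depth, taken as deposited coverage over FPKM, lay between 1.38 and 1.70 in Neg and between 0.0695 and 2.06 in E. The shallow E libraries were olfactory bulb replicate 1 (0.315) and brainstem replicate 1 (0.0695). For transcripts near 10 FPKM the deposited interval had a half-width of 34.8% and 70.6% of the value in these, against 11.7% to 16.1% in the other 10 libraries. Between 3002 and 6779 genes (median 4441) reached 1 FPKM in E, and between 2104 and 7465 (median 5022) in Neg (exact permutation within regions, two-sided, p = 0.7315 over 216 arrangements, smallest possible 0.009259). By FPKM times transcript length, nuclear transcripts took 6.73% to 21.8% of fragments in E and 6.22% to 20.3% in Neg. What made up the rest was not measured, and up to 7 of the 10 mitochondrial transcripts had no estimate in a library.

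**Figure D1:**
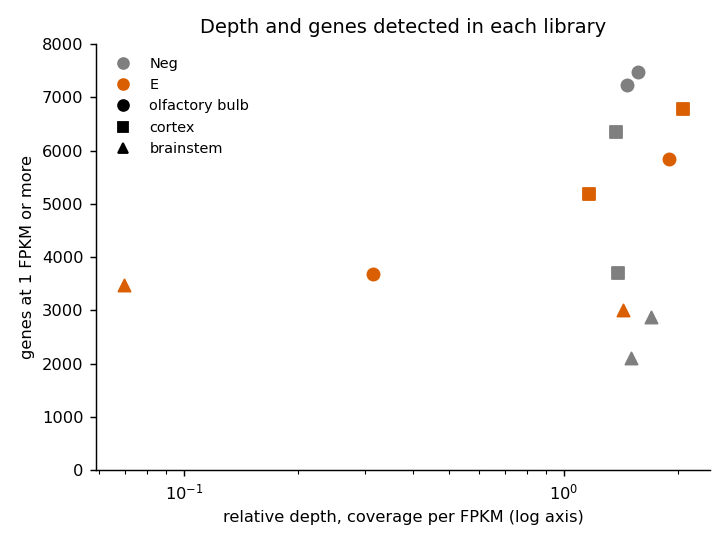
Genes at 1 FPKM or more against relative depth (log axis) in the 6 E (orange) and 6 Neg (grey) libraries, with the region as the marker shape. Neg libraries of nearly equal depth ran from 2104 to 7465 genes, and an E library at a depth of 0.0695 still had 3480.

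1 library went in part against its label, and others stood apart in depth or content. Olfactory bulb genes were found in the library labelled cortex E replicate 2. Its 17 bulb interneuron and projection markers summed to 129.5 FPKM. That sum was 20.0 to 29.8 in the other 3 cortex libraries and 59.9 to 211.8 in the 4 bulb libraries. The 6 cortical neuron markers summed to 9.276 FPKM in the same library. They summed to 9.917 to 36.02 in the other 3 cortex libraries and to 1.18 to 5.286 in the 4 bulb libraries. The cortical sum of cortex E replicate 2 thus lay between those ranges. Of the 6 cortical markers 3 were above 0 in it, against 4 to 6 in the other cortex libraries and 2 to 3 in the bulb libraries. Whether its label is wrong was not tested. Across 9251 genes its values correlated more with olfactory bulb E replicate 2 (Pearson's r = 0.67) than with cortex E replicate 1 (r = 0.53), as a description across genes, which are not independent. Xist, transcribed only from the inactive X chromosome of females, was at 27.6 and 29.2 FPKM in olfactory bulb Neg and at 0.0135 or less in the 4 other Neg libraries, where 3 or 4 of 4 Y-linked genes were above 0. All 6 E libraries held Xist, from 1.12 to 21.0 FPKM, and 5 of them also held at least 1 of those Y-linked genes. In olfactory bulb both E libraries held 3 of the Y-linked genes above 0, against 0 in both Neg libraries. These genes were chosen after their values were seen, and the sex of the animals cannot be told apart from population in olfactory bulb, cortex or brainstem. All Neg libraries carry title numbers of the first of 2 number series and all E libraries those of the second. The labels do not call these series batches, and they cannot be told apart from population.

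No gene differed between E and Neg at an adjusted p under 0.05 in limma's test over 9251 genes (0%), with region as a block. At an unadjusted p under 0.05 there were 576 genes (6.23%), of which 241 (2.61%) were higher in E and 335 (3.62%) lower. Of the 9251 genes, 4708 had a positive difference and 4543 a negative one. The median log2 difference over all genes tested was 0.01, and it was -0.52 in olfactory bulb, 0.33 in cortex and 0.04 in brainstem. After quantile normalization the counts were 359 higher (3.88%) and 480 lower (5.19%), with 1 gene called, Ctss (adjusted p = 0.00867). After rescaling each library to the same sum they were 229 (2.48%) and 643 (6.95%), with 0 called and a median over all genes of -0.31. Rescaling to a sum of 1000000 raised all values above 0, since nuclear sums as deposited were 23005 to 70447 FPKM. The same 1 was still added before the logarithm. Rescaled differences of low genes therefore reflect the smaller weight of this 1 as well as the common sum. For Fcer1g the difference was -3.07 as deposited, -5.47 with 0.1 added instead of 1, and -6.72 after rescaling. Without cortex E replicate 2 the counts were 182 (2.06%) and 443 (5.02%) of 8821, with 0 called. Without both shallow E libraries they turned to 716 higher and 223 lower, again with 0 called, and the median over all genes was 0.15. Every gene difference below is therefore given as a value that did not pass the adjusted threshold in the E and Neg libraries as deposited.

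Ddx19a (chromosome 8, 110974996 to 110997800, minus strand, GRCm38, protein coding) was the marker with the largest difference. In Neg it was at 3.48 and 0.612 FPKM in olfactory bulb, at 0.194 and 0 in cortex, and was listed at 0 in both brainstem libraries. The E values were 7.74 and 6.42 in olfactory bulb, 8.51 and 4.23 in cortex and 1.15 and 12.6 in brainstem. Every E library was above both Neg libraries of its own region, and the groups overlapped only between regions, where brainstem E replicate 1 lay below olfactory bulb Neg replicate 1. The log2 difference was 2.24 ± 0.52 (SE), with a 95% interval of 1.17 to 3.30 and an adjusted p of 0.357. It was 1.58 in olfactory bulb, 2.69 in cortex and 2.44 in brainstem, and 2.29 without cortex E replicate 2. The value of 1.15 rests on a shallow library, in which the deposited interval ran from 0 to 2.78. Ddx19b, the neighbouring paralog, was at 1.06 FPKM or less in all 12 libraries. Sharing of reads between this pair was not tested.

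Other genes of the export pathway did not share this difference in size. Of 15 mRNA export genes listed, 11 passed the filter on low values, and Ddx19a was the single one at an unadjusted p under 0.05. The median of the 11 was -0.05, against 0.01 over all genes. Across the other populations Ddx19a had a range of 0.0456 to 2.43 FPKM in A, 1.08 to 5.12 in B, 2.57 to 6.31 in C and 0.0574 to 2.46 in D. The median of E, 7.08, was above the highest C library, although the E range overlapped those of all the others.

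Slc1a3 (chromosome 15, 8634124 to 8710764, minus strand), which clears glutamate from the synapse, was at 33.1 and 25.3 FPKM in olfactory bulb Neg, 31.9 and 12.9 in cortex Neg and 2.29 and 2.18 in brainstem Neg. The E libraries held 30.9 and 86.7, 70.0 and 71.1, and 13.7 and 19.4 in the same order of regions. Cortex and brainstem did not overlap, and in olfactory bulb the shallow E library lay between the Neg libraries. The difference was 1.66 ± 0.51 (adjusted p = 0.679). The E range, 13.7 to 86.7, lay below the C range, 124.2 to 346.7, and overlapped those of A (49.99 to 132.1) and B (53.7 to 322.0).

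Gpr37l1 (chromosome 1, 135160234 to 135167681, minus strand) was at 1.98 and 5.64 FPKM in olfactory bulb Neg, 5.69 and 0.320 in cortex Neg, and 0.228 and 0 in brainstem Neg. Values in E were 4.32 and 2.14, 22.1 and 4.80, and 15.3 and 2.72. The ranges overlapped in olfactory bulb and cortex and not in brainstem. The difference was 1.55 ± 0.60 (adjusted p = 0.714), and by region it was -0.12, 1.96 and 2.81. The C libraries ran from 41.2 to 159.1 FPKM, above the highest E library.

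**Figure D2:**
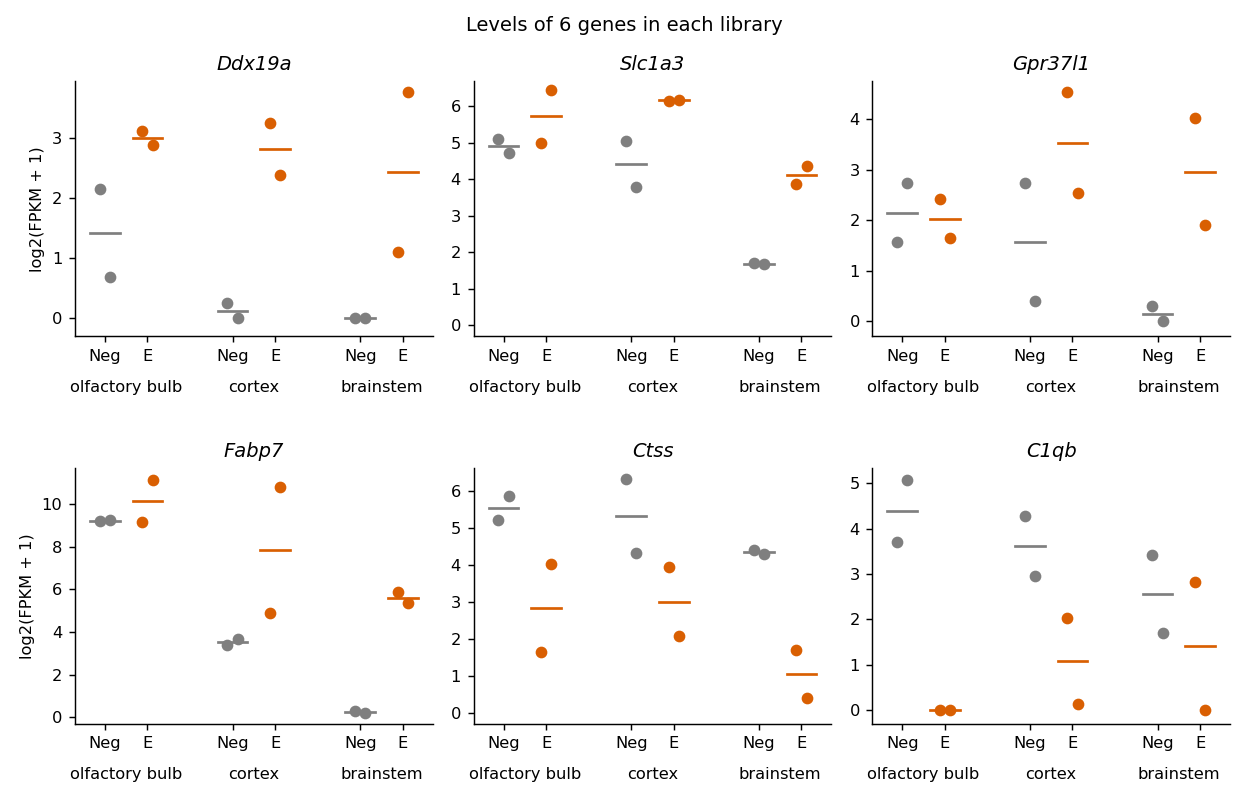
log2(FPKM + 1) of 6 genes in each of the 12 libraries, by region and population; points are libraries and bars the means of 2. Every E library exceeds both Neg libraries of its region for Ddx19a, and every E library lies below them for Ctss. C1qb overlaps in brainstem alone.

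Aldh1l1, the folate enzyme widely used to mark astrocytes, was low in both populations, from 0 to 2.00 FPKM in Neg and from 0.331 to 5.36 in E. Its difference was 0.73 ± 0.50 (adjusted p = 0.863), with -1.10 in olfactory bulb, 1.89 in cortex and 1.41 in brainstem. Of the sorting antigens of the study, Itgav, an integrin subunit, differed by 0.83 ± 0.49 (adjusted p = 0.811) and Cd63, a tetraspanin of late endosomes, by 0.55 ± 0.50 (adjusted p = 0.928). Tfrc, the transferrin receptor, differed by -0.36 ± 0.54 (adjusted p = 0.964). The signs of Cd63 and Tfrc turned under some alternatives of the processing. Over all libraries the ranges of all 3 antigens overlapped between the populations.

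Astrocyte genes were, as a list, on the high side in E. Of 30 astrocyte markers, all 30 had a positive difference, with a median of 1.31 against 0.01 over all genes. At an unadjusted p under 0.05, 17 were on the high side and 0 on the low side. Among all genes 4708 of 9251 were positive, with 2.61% on the high side and 3.62% on the low side at that threshold. The list was chosen with earlier results of these data known, and 0 of its members passed the adjusted threshold. Its summed level was 1311 and 1323 FPKM in olfactory bulb Neg, 982.3 and 358.8 in cortex Neg, and 319.3 and 216.7 in brainstem Neg. The E sums were 1274 and 4127, 2297 and 3131, and 613.8 and 1074. E exceeded Neg in every library of cortex and brainstem and in 1 of 2 in olfactory bulb. The median was 1.05 after quantile normalization, 1.36 after rescaling and 1.31 without cortex E replicate 2. These are bulk samples, in which fewer cells of a type and less RNA per cell cannot be told apart.

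Fabp7 (chromosome 10, 57784881 to 57788450, plus strand), the fatty acid binding protein of radial glia and immature astrocytes, had the largest positive difference of all genes tested, 3.54 ± 0.75 (adjusted p = 0.269). It was at 587.3 and 611.8 FPKM in olfactory bulb Neg, 9.65 and 11.7 in cortex Neg and 0.217 and 0.162 in brainstem Neg. E libraries of the same regions held 573.6 and 2264, 28.7 and 1795, and 57.2 and 40.5. The cortex value of 1795 belongs to the library that carries olfactory bulb genes, and without it the difference was 2.70. The groups separated in cortex and brainstem, and in olfactory bulb the shallow E library lay below both Neg libraries. Fabp7 was called without cortex E replicate 1 (difference 4.18, adjusted p = 0.0255) and with array quality weights (4.07, adjusted p = 0.0274).

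Among other astrocyte markers Ntsr2, a neurotensin receptor, ranged from 27.6 to 74.6 FPKM in E and from 0.282 to 42.4 in Neg, a difference of 1.96 ± 0.61. Aqp4 ranged from 8.39 to 26.7 in E and from 2.10 to 10.1 in Neg, with a difference of 1.45 ± 0.51. Every E library was above both Neg libraries of its own region for each of this pair except in olfactory bulb for Ntsr2, where E replicate 2 at 27.6 lay between the Neg values. Over all genes tested, 52 of 9251 (0.562%) had E above Neg without overlap in each of the 3 regions. Gfap, the intermediate filament raised in reactive astrocytes, differed by 1.55 ± 0.63, and its highest value, 55.2 FPKM, came from brainstem E replicate 2 against 2.93 to 9.02 in the other E libraries. Slc1a2, the glutamate transporter GLT-1, differed by 0.94 ± 0.49, with E from 56.7 to 651.4 and Neg from 18.7 to 339.8.

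Genes of transmitter uptake and recycling had a median of 1.17, with 11 of 12 positive and 6 of 12 at an unadjusted p under 0.05, all on the high side. The share of all genes on the high side at that threshold was 2.61%. Regions disregarded, the lowest E library was above the highest Neg library for 3 of the 9251 genes (0.0324%). Among them were Acsf2, an acyl-CoA synthetase (1.57 to 13.1 FPKM in E against 0 to 1.47 in Neg), and Lin7c, a scaffold protein of synapses and epithelia (15.8 to 39.8 against 6.63 to 14.6).

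Slc6a11, the GABA transporter GAT3 of astrocytes, differed by 1.94 ± 0.59 (adjusted p = 0.679), with values of 7.66 to 117.4 FPKM in E and 0.914 to 40.3 in Neg. Glul, glutamine synthetase, ranged from 66.4 to 647.2 in E and from 43.4 to 274.6 in Neg (difference 1.33 ± 0.47). Slc7a11, the cystine and glutamate exchanger, differed by 1.56 ± 0.51. Without cortex E replicate 2 and after rescaling together, Glul was called (1.23, adjusted p = 0.0491), as was Sparcl1 (1.31, adjusted p = 0.0154).

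Synapse formation factors, brain matrix genes, Notch and BMP targets and cholesterol genes had list medians between those of the astrocyte markers and of all genes. The amounts depended on the scaling. Of 11 synapse formation factors 10 passed the filter, with a median of 0.63. Within them Sparcl1, the synaptogenic protein hevin, was at 76.2 to 479.4 FPKM in E and at 36.02 to 136.7 in Neg (1.43 ± 0.47, adjusted p = 0.679). Gpc5, a glypican, differed by 1.54 ± 0.52. The median was 0.63 for 7 of 10 brain matrix genes, among them Ptprz1, a receptor phosphatase and proteoglycan (1.36 ± 0.51). It was 0.53 for 9 of 11 targets of Notch and BMP signalling, where Id3, Nrarp and Hey2 differed by 1.58, 1.48 and 1.27. It was 0.43 for 15 of 20 cholesterol genes, where Insig1 and Hmgcs1, a regulator and an early enzyme of sterol synthesis, each differed by 1.11. At an unadjusted p under 0.05 on the high side were 2, 1, 3 and 2 genes of these 4 lists in turn, and 0 on the low side. The shares of all genes were 2.61% and 3.62%. After rescaling the medians were 0.86, 0.28, 1.16 and 0.91 in the same order, with 3, 1, 1 and 1 on the high side and 1 brain matrix gene on the low side. The brain matrix median kept its sign in 26 of 27 alternatives and was -0.24 in the other.

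The remaining genes with the smallest p on the high side, named by rule, were Elovl5, Etnppl, Luzp2, Sash1, Fam213a, Sdc3, Ptn, Ncam1 and Ifitm2. Their differences lay between 1.74 and 2.09 and their adjusted p between 0.448 and 0.679. The rule took only genes positive in all 3 regions. Elovl5, an elongase of polyunsaturated fatty acids, was at 5.40 to 63.2 FPKM in E and 0.357 to 15.1 in Neg. Etnppl, a phospholyase of phosphoethanolamine enriched in astrocytes, was at 3.91 to 10.2 in E and 0 to 5.74 in Neg. Luzp2, a leucine zipper protein, was at 11.3 to 85.5 in E and 2.67 to 28.3 in Neg. Sdc3 is a cell surface heparan sulfate proteoglycan, Ptn the growth factor pleiotrophin and Ncam1 a neural adhesion molecule. Ptn reached 690.7 FPKM in olfactory bulb E replicate 2 and 677.2 in cortex E replicate 2, against 41.97 in cortex E replicate 1. Ifitm2, an interferon-induced membrane protein, differed by 2.35 and 3.23 in olfactory bulb and cortex and by 0.27 in brainstem. Isg15, another interferon-induced gene, was at 4.40 to 23.4 FPKM in 4 E libraries and listed at 0 in the other 2, and at 0.990 or less in Neg. The 12 of 18 antigen presentation and interferon genes that passed the filter had a median of 0.22, which turned to -0.32 after rescaling and -0.36 without cortex E replicate 2 and kept its sign in 18 of 27 alternatives.

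**Figure D3:**
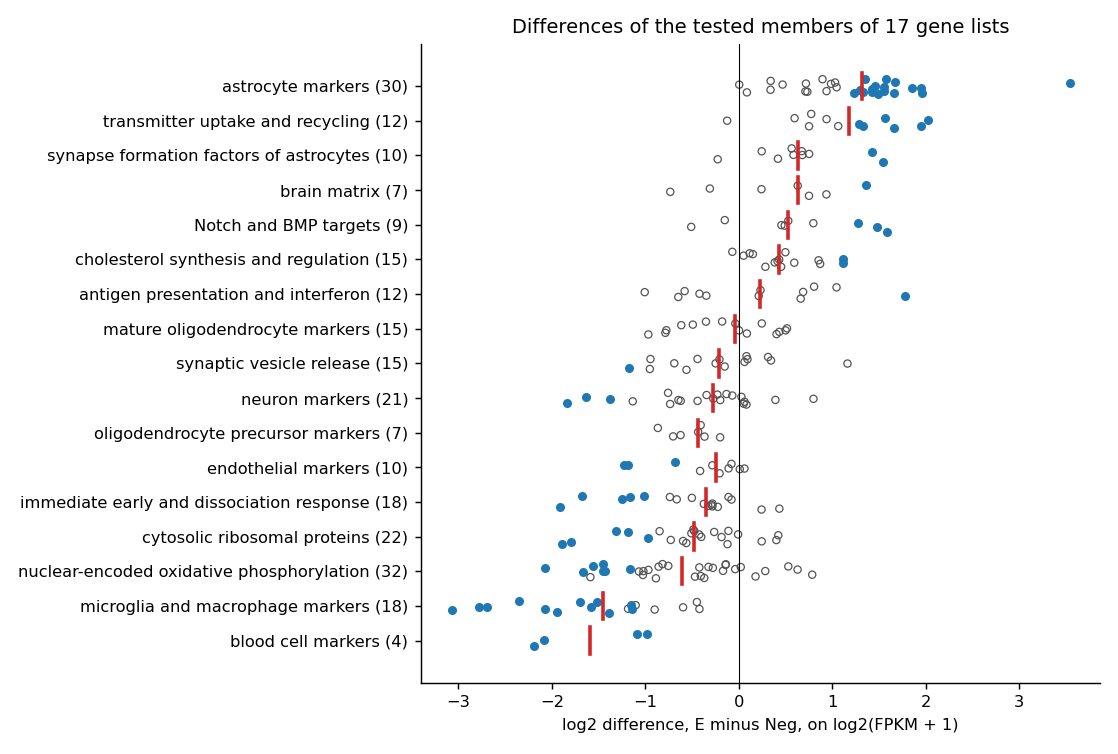
log2 differences (E minus Neg) of the tested members of 17 gene lists, with the number tested in brackets; filled points are at an unadjusted p under 0.05 and red bars are medians. Astrocyte markers lie at or above 0 (median 1.31) and microglia and macrophage markers below it (median -1.46).

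Microglia and macrophage genes made up the other end. All 18 markers listed passed the filter and had a negative difference, with a median of -1.46. At an unadjusted p under 0.05 on the low side were 12 of them, against 3.62% of all genes. In 5 of 18, both E libraries lay below both Neg libraries in each region, against 0.649% of all genes. Their summed level was 311.5 and 363.7 FPKM in olfactory bulb Neg, 345.7 and 144.3 in cortex Neg, and 108.3 and 54.5 in brainstem Neg. In E it was 33.1 and 100.1, 99.2 and 68.0, and 34.8 and 32.6. Every E library was below both Neg libraries of its region in that sum. The median was -1.55 after quantile normalization, -2.64 after rescaling, -1.43 without cortex E replicate 2 and -1.29 without both shallow libraries. In the other populations the sum ranged from 58.9 to 325.7 FPKM in D and from 1235 to 2241 in B, so the level of E was the lowest by its median (51.4), although its range overlapped that of D.

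Ctss (chromosome 3, 95526786 to 95556403, plus strand), cathepsin S, a lysosomal protease of microglia and macrophages, had the smallest p of all genes. It was at 36.2 and 56.7 FPKM in olfactory bulb Neg, 78.3 and 18.8 in cortex Neg and 20.2 and 18.4 in brainstem Neg. In E it was at 2.08 and 15.3, 14.2 and 3.20, and 2.22 and 0.309. Its highest E library lay below its lowest Neg library, which held for 10 of 9251 genes (0.108%). The difference was -2.77 ± 0.57, with a 95% interval of -3.94 to -1.61 and an adjusted p of 0.269. After quantile normalization it was -3.01 (adjusted p = 0.00867), and with array quality weights -2.88 (adjusted p = 0.0449).

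Fcer1g (chromosome 1, 171229572 to 171234365, minus strand), the common gamma chain of Fc receptors, was at 18.3, 36.5, 15.03, 12.98 and 19.2 FPKM in 5 Neg libraries and at 0.215 in brainstem Neg replicate 2. It was listed at 0 in 5 E libraries and at 10.4 in cortex E replicate 2. The difference was -3.07 ± 0.67 (adjusted p = 0.269). It was -3.67 without brainstem Neg replicate 2, where the gene was called (adjusted p = 0.024), and -3.62 without cortex E replicate 2. C1qb and C1qc, chains of complement C1q that lie next to each other on chromosome 4 (136880129 to 136886187 and 136889804 to 136893065), differed by -2.70 ± 0.62 (adjusted p = 0.357) and -2.35 ± 0.57 (adjusted p = 0.404). C1qb was at 2.26 to 32.8 FPKM in Neg, listed at 0 in 3 E libraries and at 0.0913 to 6.03 in the other 3.

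The signalling adaptor Tyrobp differed by -2.07 ± 0.59 and the purinergic receptor P2ry12 by -1.39 ± 0.49. Cx3cr1, the fractalkine receptor, differed by -1.10 ± 0.57, with 19.1 FPKM in cortex E replicate 1, above all Neg libraries. Tmem119, a membrane protein of resident microglia, differed by -0.45 ± 0.63 and reached 12.4 in brainstem E replicate 2. P2ry12 was above 0 in all 6 E libraries and Cx3cr1 and Tmem119 in 5 of 6.

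Blood genes were low in E by the same measure. Of 7 blood cell markers the 4 globin genes passed the filter, all with negative differences (median -1.59, and -4.36 after rescaling) and all at an unadjusted p under 0.05. Hba-a1 ranged from 1.88 to 14.6 FPKM in Neg and from 0 to 4.97 in E (-2.08 ± 0.54, adjusted p = 0.449). Hbb-bs was at 3.38 to 41.1 in Neg, and in E it was at 37.4 in brainstem replicate 1 and 9.91 or less in the others. Near-identical globin genes share reads, so the split between them is uncertain. Of 11 endothelial markers 10 passed the filter, with a median of -0.25 (-1.44 after rescaling) and 3 at an unadjusted p under 0.05 on the low side. Among all genes 3.62% were low at that threshold, and the rescaled median was -0.31. Flt1, a receptor for VEGF, and Slco1a4, a transporter of the blood-brain barrier, differed by -1.22 ± 0.58 and -1.18 ± 0.49.

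Immediate early genes, induced by neuronal activity and by the dissociation of tissue, were on the low side in 16 of 18 (median -0.35, and -1.15 after rescaling), and 5 were at an unadjusted p under 0.05. Among all genes 4543 of 9251 were negative, 3.62% were low at that threshold, and the rescaled median was -0.31. The list median was -1.34 in olfactory bulb, 0.08 in cortex and -0.25 in brainstem. The medians over all genes were -0.52, 0.33 and 0.04. Zfp36, an mRNA decay factor, was at 39.7 and 20.6 FPKM in olfactory bulb Neg, 23.3 and 21.4 in cortex Neg and 10.3 and 8.85 in brainstem Neg. In E it was listed at 0 and at 4.21 in olfactory bulb, and was at 9.04 and 9.78 in cortex and 8.06 and 2.63 in brainstem, below both Neg libraries of each region (-1.92 ± 0.58, adjusted p = 0.679). Fosb was at 1.05 to 17.6 in Neg and at 0 to 5.40 in E, and Klf4 at 0.508 to 3.94 and 0 to 1.04. Ier2 was listed at 0 in all 6 E libraries and at 0.0896 to 4.89 FPKM in Neg. Cd37, a tetraspanin of leukocytes, was likewise listed at 0 in all 6 E libraries, with 0.156 to 3.39 in Neg.

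Neuron and oligodendrocyte RNA was present in both populations, with summed levels that overlapped. The summed level of 22 neuron markers ranged from 133.0 to 765.0 FPKM in Neg and from 66.4 to 701.1 in E, with a median difference of -0.27 over the 21 tested (-0.85 after rescaling). Of these 21, 15 were negative, against 4543 of 9251 over all genes. At an unadjusted p under 0.05, 3 of the 21 were on the low side, against 3.62% of all genes. After quantile normalization 5 were, against 5.19% of all genes, and 0 were on the high side in both. Camk2a, a kinase of excitatory synapses, had the largest of these differences in size: 139.0, 143.6, 379.7, 218.1, 17.95 and 17.98 FPKM in Neg and 39.8, 57.4, 272.2, 75.5, 1.39 and 1.45 in E, in the order of regions. Only cortex overlapped, and the difference was -1.84 ± 0.50 (adjusted p = 0.565). Stmn3 and Nefm, a microtubule regulator and a neurofilament subunit, differed by -1.64 ± 0.57 and -1.38 ± 0.50. Mature oligodendrocyte markers had a median of -0.04 and 0 of 15 at an unadjusted p under 0.05. After rescaling the median was -0.51, with 3 on the low side. Mbp, the myelin basic protein, averaged 2540 ± 2166 FPKM (SD, n = 6) in E and 3015 ± 1724 (SD, n = 6) in Neg, and was the highest gene in 7 of the 8 cortex and brainstem libraries. Its difference was -0.49 ± 0.39. All groups are labelled astrocyte, yet in cortex and brainstem E the 15 oligodendrocyte markers summed to 2031 to 9127 FPKM and the 30 astrocyte markers to 613.8 to 3131. The astrocyte sum was the higher in cortex E replicate 2 (3131 against 2031). It was also the higher in both olfactory bulb E libraries (1274 against 731.7 and 4127 against 2262). In Neg the oligodendrocyte sums were 1997 to 7319 and the astrocyte sums 216.7 to 1323.

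**Figure D4:**
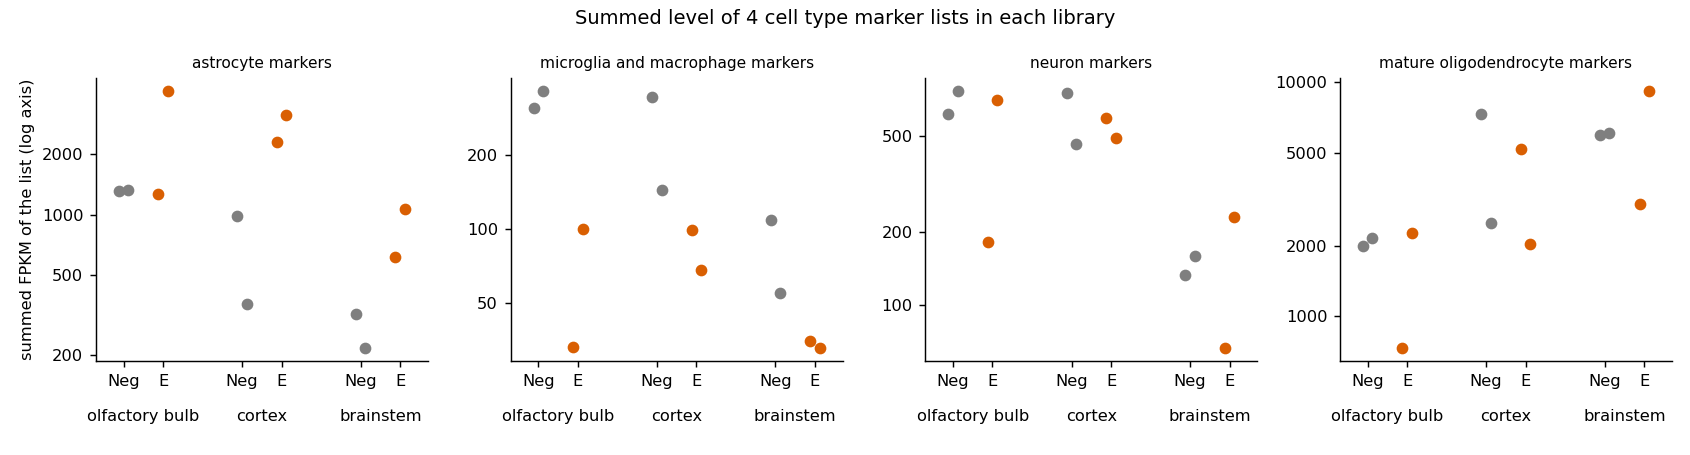
Summed FPKM (log axes) of 4 marker lists in each library, by region, with Neg in grey and E in orange. Astrocyte sums are higher and microglial sums lower in E than in Neg of the same region, except for the astrocyte sum of olfactory bulb E replicate 1 (1274), while neuron and oligodendrocyte sums overlap.

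The other named genes on the low side were Scg5, Lmo2, Snhg1, Rgs10, Atp5mpl, Zfas1, Cck and D8Ertd738e. Their differences lay between -2.71 and -1.81 and their adjusted p between 0.404 and 0.565. The rule took only genes negative in all 3 regions. Scg5, a chaperone of neuroendocrine secretion, was at 0.192 to 14.2 FPKM in Neg and 0 to 1.44 in E. Cck, the neuropeptide cholecystokinin, was listed at 0 in 4 E libraries and at 5.92 in cortex E replicate 1. Snhg1 and Zfas1 are noncoding hosts of small nucleolar RNAs: Snhg1 was at 0.0283 or less in 5 E libraries and at 6.39 in cortex E replicate 2, against 0.950 to 17.8 in Neg. Rgs10, a regulator of G protein signalling that is abundant in microglia, was at 1.00 to 10.2 in Neg and 0 to 1.23 in E. Atp5mpl, a small subunit of ATP synthase, was at 3.66 to 67.8 in Neg and 0 to 16.6 in E.

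Short transcripts were more often on the low side. Of 661 genes with transcripts under 1000 nucleotides 83 (12.6%) were lower and 12 (1.81%) higher at an unadjusted p under 0.05, and of 1514 genes with 5000 nucleotides or more 10 (0.66%) were lower and 48 (3.17%) higher. The median difference ran from -0.26 in the shortest class to 0.06 in the longest. In the shortest class it was -1.04 in olfactory bulb, 0.24 in cortex and 0 in brainstem. In the longest class it was -0.38, 0.34 and 0.17 in the same order. Per library, genes under 1000 nucleotides held 7.54% to 12.7% of the summed FPKM in E (median 11.9%). In Neg they held 8.58% to 15.8% (median 11.7%). The difference in this share was -1.12 percentage points (exact permutation within regions, two-sided, p = 0.3148, smallest possible 0.009259). Lists of short genes lay on the low side: 32 of 33 oxidative phosphorylation genes (median length 533 nucleotides) had a median of -0.61, and 22 of 30 ribosomal protein genes (740 nucleotides) one of -0.48. After rescaling these were -1.36 and -1.11. Atp5e and Uqcr11, respiratory chain subunits, differed by -2.08 and -1.67, and Rps21, a ribosomal protein, by -1.90. Microglia markers had a median length of 1285 nucleotides, blood genes of 598 and astrocyte markers of 2696, against 2883 over all genes. Ctss, Fcer1g and C1qb have transcripts of 1357, 658 and 1062 nucleotides, while Fabp7, on the high side, has one of 762. The part of length in these differences was not tested.

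**Figure D5:**
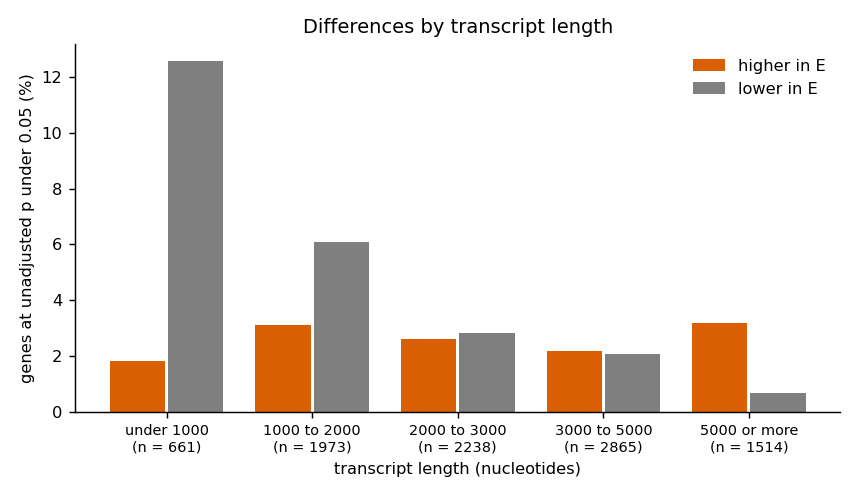
Share of genes (percent) at an unadjusted p under 0.05 on the high (orange) and low (grey) side in E, in 5 classes of transcript length with the number of genes tested. The low share is 12.6% in the shortest class and 0.66% in the longest.

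Whether E minus Neg differed between regions was tested with limma in a fit with a mean for each group, which called 0 genes at an adjusted p under 0.05, with 741 (8.01%) at an unadjusted p under 0.05. Without brainstem E replicate 1 it called 2. Astrocyte markers had a median difference of 0.59 in olfactory bulb, 1.75 in cortex and 1.48 in brainstem, and microglia markers -2.69, -1.31 and -1.004. The medians over all genes, given above, run the same way between olfactory bulb and the other regions. Named by the smallest p of this test, Ly6c1, an endothelial surface protein, differed by -3.38 in olfactory bulb and by 1.70 and 1.44 in cortex and brainstem. The others were Dctn5 (-3.14, 2.19 and 0.42), Bex3 (-2.55, 3.48 and -0.87), Itgb1bp1 (2.05, -0.48 and -2.76) and Hspb6 (-1.29, 3.22 and -2.01). All 5 had an adjusted p of 0.576. Genes of the choroid plexus varied widely between libraries, and 0 of 6 were at an unadjusted p under 0.05 between E and Neg. Their summed level was 434.7 and 172.9 FPKM in brainstem E, against 8.314 and 16.96 in brainstem Neg. In cortex the populations overlapped (461.8 and 13.07 in E, 376 and 76.86 in Neg). In olfactory bulb the sums were 1.851 and 2.159 in E and 1.183 and 0.7532 in Neg. Ttr, which the plexus secretes, was at 453.1 FPKM in cortex E replicate 1, 419.1 and 172.9 in brainstem E, 363.7 and 74.3 in cortex Neg, and 16.7 or less in the other 7 libraries.

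Population D, whose libraries share the second number series with E, was compared with E in a separate fit of the same form. The E libraries enter both comparisons, so these are not independent. Relative depth was 1.56 to 2.37 in D and 0.0695 to 2.06 in E. Genes at 1 FPKM numbered 2999 in cortex D replicate 2, 7704 to 8691 in the other D libraries and 3002 to 6779 in E. Nuclear transcripts took 12.97% of fragments in that D library, 22.36% to 46.04% in the others and 6.73% to 21.8% in E. What part these library differences had in the gene differences was not tested. Of 10748 genes 0 were called, and at an unadjusted p under 0.05 there were 11 (0.102%) higher in E and 1767 (16.4%) lower, with a median of -0.60 over all genes. That count depended on cortex D replicate 2, without which 1271 genes were called, 2 of them higher in E. Ddx19a was 1 of the 11, at 0.0574 to 2.46 FPKM in D and 1.15 to 12.6 in E (1.74 ± 0.62, adjusted p = 0.215), and each E library was above both D libraries of its region. Astrocyte markers had a median of -0.92 and microglia markers of -0.45, against the median of -0.60 over all genes. Gpr37l1 was lower in E than in D by 1.99 on the log2 scale, and Slc1a3 differed by -0.85. The smallest p on the low side belonged to Phlda1, Atp5mpl, Banf1, Agrn and Gm26917 (adjusted p = 0.111 for each). Agrn, the proteoglycan agrin, was at 9.45 to 22.9 FPKM in D and 0 to 2.90 in E without overlap. Phlda1 was at 16.7 to 48.7 in D and at 1.71 or less in 5 E libraries, with 48.0 in cortex E replicate 2. On the high side, Gm28592, Gm26723 and Gm38182 were listed at 0 in all D libraries and in 3 or 4 of the 6 E libraries.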

How the data were processed

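RNA was sequenced from sorted mouse brain cells. Per the labels' protocols, column-purified total RNA was turned into cDNA with the NuGEN Ovation V2 system, with random and oligo d(T) priming, which does not mark strand, so antisense and overlapping genes cannot be told apart. Per the submitters' processing notes, bcl2fastq 1.8.3, TopHat and Cufflinks were used on mm10. The authors deposited FPKM and coverage for 63241 transcripts in each table, per the file headers. FPKM are estimates scaled to mapped fragments, so a transcript that takes a large share lowers all others.

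Transcripts were assigned by position to GENCODE genes (GRCm38) at an overlap score of 0.5 or more with a lead of 0.1, which placed 52546 (83.1%) in 25453 genes, and FPKM were summed per gene. Genes with at least 1 FPKM in 2 of the 12 libraries were tested with limma 3.58.1 (R 4.3.3) on log2(FPKM + 1), with region as a block, a variance trend, 8 residual degrees of freedom, two-sided tests and Benjamini-Hochberg adjustment. This scale understates differences of low genes. Where no tool is named, adjusted p are from this test. The pipeline was tested on simulated data. E minus D was fitted alike, and depth was taken as the median ratio of deposited coverage to FPKM.

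Named genes were the 3 markers, Aldh1l1, 3 sorting antigens, the 15 genes with the smallest p on each side with 1 sign in all regions, up to 4 members and defining markers of each list, and the 5 smallest p for the region test and each side of E minus D. Acsf2, Lin7c, Cd37, Xist and the Y-linked genes were added after their values were seen, and some genes that the rule names are not reported here. The members and lists were chosen with earlier results of these data known. No sequence is printed, since none bears on the comparison.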

Additional observations from a re-analysis of the deposited data

Results flagged for a closer look

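In 144 groups of 6 libraries (68 genes and a few library measures, in each population), 13 held 1 library far from the other 5 by Dixon's test, and chance alone flags about 1 in 20 groups. Values are log2(FPKM + 1). Within E, cortex replicate 2 stood high for Fcer1g (3.51), Snhg1 (2.89) and Rgs10 (1.16), cortex replicate 1 for Cck (2.79) and Stmn3 (1.75), brainstem replicate 2 high for Gfap (5.81) and low for Cd63 (0), and olfactory bulb replicate 2 high for Lin7c (5.35). Within Neg, olfactory bulb replicate 1 stood high for Ddx19a (2.16), brainstem replicate 1 low for Atp5mpl (2.22) and Tfrc (0.86), and brainstem replicate 2 low for Fcer1g (0.28) and Flt1 (0.21). The 3 high values of cortex E replicate 2 belong to the library that carries olfactory bulb genes.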

How the results depend on the processing

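The count of 0 genes called between E and Neg stayed at 0 under rescaling to a sum of 1000000, a pseudocount of 0.1, no filter, a filter of 1 FPKM in 6 libraries, the highest transcript of each gene, a minimum log2 difference of 1, no region term, all 36 libraries in the fit, and without both shallow E libraries. It was 1 after quantile normalization (Ctss) and 2 with array quality weights (Ctss and Fabp7). Leaving out 1 library gave 0 to 1: Fcer1g without brainstem Neg replicate 2 and Fabp7 without cortex E replicate 1. Combinations added after seeing the data gave 2 (cortex E replicate 2 left out, quantile normalized), 3 (both shallow E libraries left out, quantile normalized) 6 (cortex E replicate 2 left out, rescaled) and 0 (both shallow E libraries left out, rescaled). Of the 6, 4 were named genes and 3 were list members. The number at an unadjusted p under 0.05, 576, was 872 after rescaling, 880 after rescaling without cortex E replicate 2, 939 without both shallow libraries, 341 with the stricter filter, 23 with the minimum difference, and 441 to 816 when 1 library was left out. Rescaling moved the median of all genes to -0.31 and the genes at an unadjusted p under 0.05 to 229 higher and 643 lower. The region test called 0 to 2 genes with 1 library left out, and E minus D 0 to 1271. The cause was not tested for any of these.

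Of 1827 values of 68 genes whose differences the report gives, under 27 alternatives, 1824 kept their sign. Cd63 was at -0.24 and -1.11 without both shallow libraries after quantile normalization and after rescaling, and Tfrc at 0.069 with array weights; the cause was not tested. Of all 147 genes of the naming rule 126 kept their sign throughout and 21 turned at least once, Sparc (lowest -1.34) and Chrdl1 (lowest -0.067) included. The median of astrocyte markers ran from 0.92 to 1.60 and that of microglia markers from -2.80 to -1.25. No paired analysis was possible because the labels carry no replicate numbers. Depth limits brainstem E replicate 1 most.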
